A study of Gallus gallus with 88 samples.

Results

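The genes described here encode the subunits, assembly factors and regulators of the proteasome, the particle that degrades ubiquitin-tagged proteins. They were the probe sets of the chicken gene array whose single gene symbol begins with PSMA, PSMB, PSMC, PSMD, PSME, PSMF or PSMG. There were 30 such probe sets for 29 genes, out of 12300 probe sets with 1 symbol and 20706 probe sets tested, and PSMD2 had 2 of them. None lay on chromosome Z or W by the GRCg7b gene table.

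The proteasome consists of a barrel-shaped 20S core and a 19S cap at its ends. In the core, rings of alpha (PSMA) subunits form the gate and rings of beta (PSMB) subunits hold the proteolytic sites. The cap holds a ring of ATPases (PSMC), which unfold the substrate, and non-ATPase subunits (PSMD), which bind and remove ubiquitin. Dedicated chaperones build the particle, and in muscle the proteasome breaks down myofibrillar proteins that ubiquitin ligases have marked. Roles given below are those known from yeast and mammals.

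Hind muscle (M. gastrocnemius) RNA of 88 broilers was measured, 1 animal per array. The embryos formed 6 groups of 8. H10, C10 and L10 embryos were taken at ED10 after incubation at 38.8, 37.8 or 36.8 °C in ED7–10, and H13, C13 and L13 embryos at ED13 after the same temperatures in ED10–13. At D35 each of the 4 treatments gave 8 chickens, and the 2 C10 and 6 C13 chickens were taken as 1 control group. Chicks came from 1 commercial line and were of both sexes. Air was also more humid in both H treatments, so temperature and humidity cannot be told apart. The values were log2 signals as normalized by the submitters, and a log2 difference of 1 is a doubling of the signal. Embryos and D35 chickens were not compared.

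Animal numbers fell into 2 series. All H animals stood in series 1 and all L animals in series 2, while the C10 and C13 embryos were split 4 and 4 at each day. At D35 both C10 chickens stood in series 1, and the controls of series 2 were all C13. The sources used here do not say what the series stand for. A direct comparison of H with L animals therefore cannot be told apart from a difference between the series, and the difference between the series among controls is given beside it. The mean of 10 skeletal muscle marker genes lay between 10.74 and 12.10 in every embryo array, above the background level. That level, below which lay 95% of the mean signals of 23 background controls, was 9.71 in embryos and 9.49 at D35. Of the 30 proteasome probe sets, 18 had a mean above it in embryos and 15 at D35. Of all 20706 probe sets tested, 4332 did in embryos and 2236 at D35. The members were thus more often bright than the array as a whole, and values given over all probe sets were not matched for signal. By role, 5 of 6 alpha, 3 of 5 beta, both ATPase, 6 of 9 non-ATPase and 2 of 6 assembly probe sets lay above it in embryos, and neither that of the activator PSME4 nor that of the inhibitor PSMF1. Below it in embryos lay PSMA3, PSMB1, PSMB7, PSMD3, PSMD5, PSMD6, PSMD9, PSME4, PSMF1, PSMG1, PSMG3 and the second PSMD2 probe set. The level is set by the brightest of the 23 controls, whose names refer to GC content. Array medians in embryos, 7.90 to 8.29, also lay below it, so a mean below it does not by itself show absence of signal. PSMB7, a catalytic beta subunit, had a mean of 4.44 in embryos and 3.57 at D35, below the median of the background controls (5.61 and 5.33), and no direction is drawn for it. The other catalytic subunits, PSMB5 and PSMB6, were not analysed here, and of the ATPases only PSMC1 and PSMC2 were.

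In normal development from ED10 to ED13 a part of the proteasome genes fell. In control embryos 7 of 30 probe sets fell (23.3%) and 1 rose, at an adjusted p under 0.05 (limma). Over all probe sets, 16.4% fell and 11.8% rose, so the share that fell was near the background. The median log2 difference, C13 minus C10, was -0.064 over the 30 and -0.023 over all probe sets. The genes that fell were the core subunits PSMA1, PSMA7, PSMB2 and PSMB3 and the cap subunits PSMD1, PSMD3 and, by its dimmer probe set alone, PSMD2.

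PSMB3, a structural beta subunit, ranged from 10.97 to 11.17 (median 11.11) in C10 and from 10.62 to 10.92 (median 10.85) in C13. The groups did not overlap, and the log2 difference was -0.30 ± 0.06 (standard error, adjusted p = 0.000119). PSMB2, a neighbouring subunit of the same ring type, ranged from 11.72 to 12.08 (median 11.84) in C10 and from 11.47 to 11.72 (median 11.59) in C13, with a log2 difference of -0.26 ± 0.05 (adjusted p = 3.84e-05). All 8 C13 embryos lay below the lowest C10 embryo for both genes.

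PSMA1, an alpha ring subunit, ranged from 12.36 to 12.57 (median 12.52) in C10 and from 12.06 to 12.41 (median 12.23) in C13, a log2 difference of -0.27 ± 0.05 (adjusted p = 1.71e-05). The C13 values formed 2 separate runs, with the 4 embryos of series 1 between 12.31 and 12.41 and the 4 of series 2 between 12.06 and 12.14. This difference between the series was itself called in C13 controls (-0.26 ± 0.05, series 2 minus series 1, adjusted p = 0.0205), as the 1 of 30 members, where 0.164% of all probe sets were lower in series 2. Within series 1 alone the fall of PSMA1 was -0.18 (adjusted p = 0.0203), and within series 2 alone it was -0.36.

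PSMA7, another alpha subunit, fell by 0.25 ± 0.07 in controls (adjusted p = 0.00381). The fall was -0.39 within series 1 and -0.12 within series 2, where it was no longer called (adjusted p = 0.464). PSMD1, a large scaffold subunit of the cap, fell by 0.20 ± 0.04 (adjusted p = 3.77e-05), and by 0.20 within each series. The second PSMD2 probe set, which lies below the background level, fell by 0.29 ± 0.08 (adjusted p = 0.00658), while the first, which lies above it, differed by -0.12 ± 0.05 (adjusted p = 0.0773). PSMD3, a lid subunit also below the background level, fell by 0.25 ± 0.08 (adjusted p = 0.0221). Its call was lost without C10 embryo 19 (adjusted p = 0.051) or C13 embryo 87 (adjusted p = 0.0798).

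PSMG3 moved the other way. It encodes an assembly chaperone of the alpha ring, and its probe set lies below the background level. It ranged from 8.36 to 9.07 (median 8.58) in C10 and from 8.78 to 9.67 (median 9.01) in C13, a rise of 0.50 ± 0.11 (adjusted p = 0.000275). In L embryos it ranged from 8.21 to 8.72 (median 8.59) at ED10 and from 8.84 to 9.23 (median 9.07) at ED13, a rise of 0.53 ± 0.11 (adjusted p = 0.000153) with no overlap between the days. In H embryos the difference was 0.26 ± 0.11 (adjusted p = 0.0729), with H10 between 8.46 and 9.26 (median 8.78) and H13 between 8.91 and 9.23 (median 9.08). The 3 groups at ED13 thus had medians of 9.01 to 9.08.

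**Figure D1:**
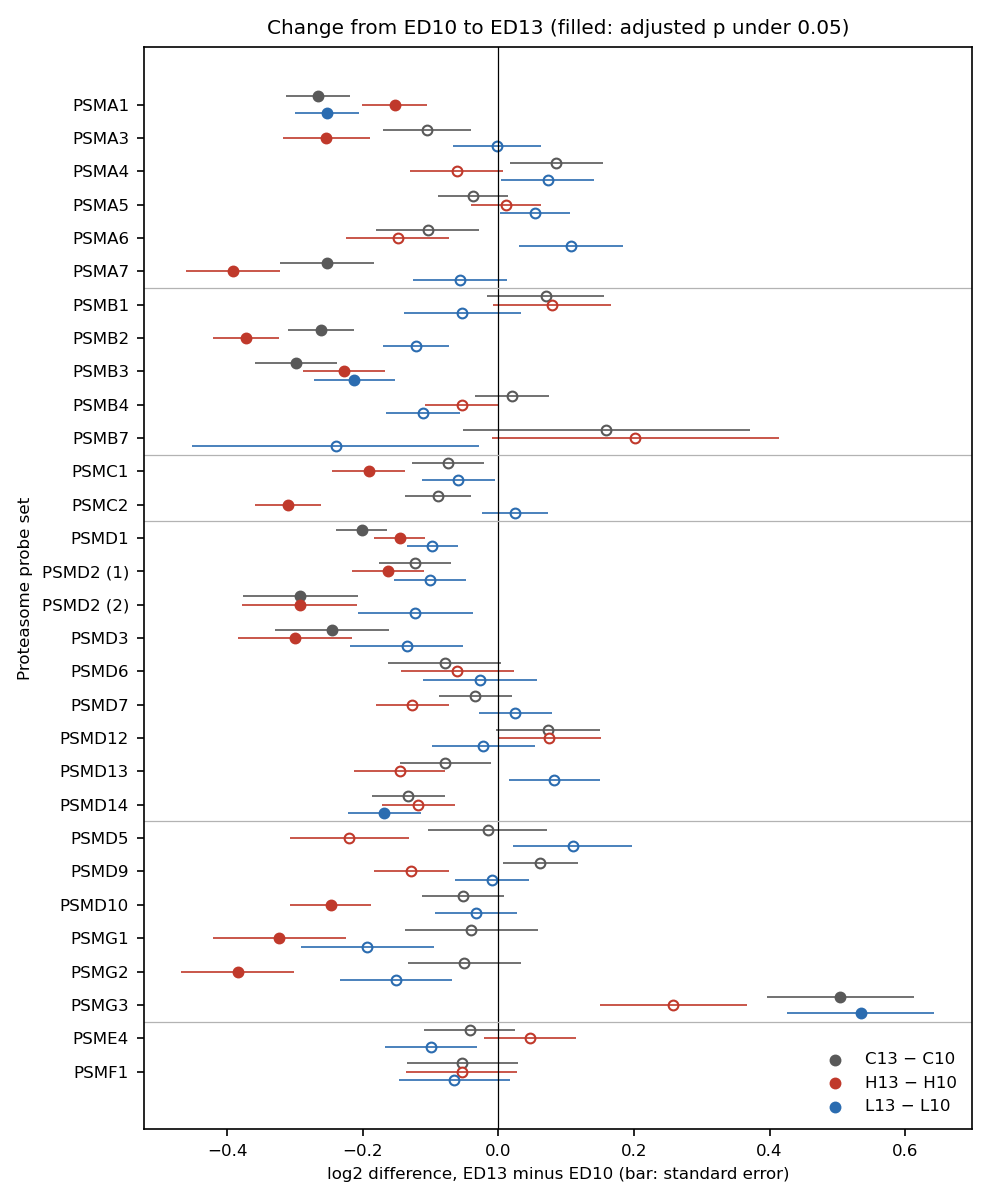
Log2 difference between ED13 and ED10 of each proteasome probe set (rows, grouped by role, PSMD2 with its 2 probe sets) in control (grey), H (red) and L (blue) embryos, with standard errors. Filled points passed an adjusted p of 0.05: 8 in controls, 14 in H and 4 in L embryos, and PSMG3 is the member on the far right.

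In warmed embryos core, cap and assembly genes fell. From H10 to H13, 14 of 30 probe sets fell (46.7%), where 12.4% of all probe sets fell, and none rose, where 14.3% of all rose. The median log2 difference was -0.15 over the 30 and 0.0012 over all probe sets. By role, 3 of 6 alpha, 2 of 5 beta, both ATPase, 4 of 9 non-ATPase and 3 of 6 assembly probe sets fell, and neither PSME4 nor PSMF1 did. The shares over all probe sets were not matched for signal. H10 and H13 embryos lie in the same number series.

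PSMB2 ranged from 11.82 to 11.95 (median 11.87) in H10 and from 11.30 to 11.62 (median 11.51) in H13, a fall of 0.37 ± 0.05 or 1.29-fold (adjusted p = 6.87e-08). PSMA7 ranged from 11.33 to 11.51 (median 11.39) in H10 and from 10.80 to 11.16 (median 11.04) in H13, a fall of 0.39 ± 0.07 or 1.31-fold (adjusted p = 1.71e-05). For both genes every H13 embryo lay below every H10 embryo. In controls of series 1, the series of the H embryos, PSMA7 changed by -0.39 over the same days. PSMC2, an ATPase of the unfolding ring, ranged from 10.99 to 11.26 (median 11.15) in H10 and from 10.60 to 11.01 (median 10.79) in H13, a fall of 0.31 ± 0.05 (adjusted p = 2.33e-06). All 8 H13 embryos lay below the H10 mean.

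Assembly factors were among the genes that fell. PSMG2, a chaperone that starts the alpha ring together with PSMG1, ranged from 10.21 to 10.65 (median 10.46) in H10 and from 9.79 to 10.25 (median 10.00) in H13, a fall of 0.38 ± 0.08 (adjusted p = 0.000322). PSMG1, below the background level, fell by 0.32 ± 0.10 (adjusted p = 0.0104), and PSMD10, a chaperone of the ATPase ring known in mammals as gankyrin, by 0.25 ± 0.06 (adjusted p = 0.00131). With the mean of the muscle markers as a covariate the calls of PSMG1 (adjusted p = 0.167) and PSMD10 (adjusted p = 0.0583) were lost. In controls, PSMG1, PSMG2 and PSMD10 had log2 differences of -0.04, -0.05 and -0.05 over the same days, none of them called.

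The other falls in H embryos were PSMA3 (like PSMD3 below the background level) by 0.25, PSMB3 by 0.23, PSMA1 by 0.15, PSMC1 by 0.19, PSMD1 by 0.15, PSMD3 by 0.30 and the 2 PSMD2 probe sets by 0.16 and 0.29, with adjusted p from 0.00227 to 0.0172. The call of the brighter PSMD2 probe set was lost without H10 embryo 13 (adjusted p = 0.0524) or H13 embryo 32 (adjusted p = 0.0555). PSMB7 apart, the members with differences above 0 were PSMA5, PSMB1, PSMD12, PSME4 and PSMG3, between 0.01 and 0.26.

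In cooled embryos, 3 of 30 probe sets fell from L10 to L13, where 15.2% of all probe sets fell, and 1 rose, where 9.76% of all rose. The median log2 difference was -0.058 over the 30 and -0.025 over all. Here too the treatment window differs along with age. PSMA1 ranged from 12.40 to 12.56 (median 12.50) in L10 and from 12.14 to 12.29 (median 12.23) in L13, a fall of 0.25 ± 0.05 (adjusted p = 4.8e-05) without overlap. PSMB3 fell by 0.21 ± 0.06 (adjusted p = 0.00641). PSMD14, the deubiquitinase that removes ubiquitin chains at the entrance of the particle, fell by 0.17 ± 0.05 (adjusted p = 0.0152), and its differences of -0.13 in controls and -0.12 in H embryos were not called. PSMA1 and PSMB3 were thus called lower at ED13 in all 3 treatments. The count in L embryos depended on how arrays were weighed and normalized, since 11 members fell with array weights and 6 with quantile normalization. The share of all probe sets that fell under these settings is not reported here, so these counts have no background beside them.

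Whether the change from ED10 to ED13 differed between treatments was tested directly. In controls this change is age alone, while in H and L embryos it also holds the change of treatment window. Against the change in controls, none of the 30 probe sets differed in H embryos or in L embryos, where 0.00966% and 0% of all probe sets were called. At an unadjusted p under 0.05 there were 5 and 1 of 30, where 7.55% and 3.48% of all probe sets were. The difference for PSMC2 was -0.22 ± 0.07 in H embryos (adjusted p = 0.268), and that for PSMG2 was -0.33 ± 0.12 (adjusted p = 0.386).

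The change in H embryos was also set against that in L embryos, each within its own number series, a comparison added after the data were seen. A difference between the series cancels here only where it is the same at ED10 and ED13, which was not tested. PSMC2 was called, with a change lower in H by 0.33 ± 0.07 (adjusted p = 0.0086). It was the 1 of 30 members called, and 0.261% of all probe sets were called in that direction. Its 8 L10 embryos lay between 10.90 and 11.16 (median 11.06) and its 8 L13 embryos reached 11.11 at most (median 11.06, SD 0.04), a difference of 0.02 ± 0.05, against the fall in H embryos. PSMB2 (-0.25 ± 0.07, adjusted p = 0.0649) and PSMA7 (-0.33 ± 0.10, adjusted p = 0.0825) came next. With quantile normalization, or with each array centred on its median, 6 members were called in this test, namely PSMC2, PSMA7, PSMB2, PSMA3, PSMD5 and PSMD13. The share of all probe sets called under those settings is not reported here.

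**Figure D2:**
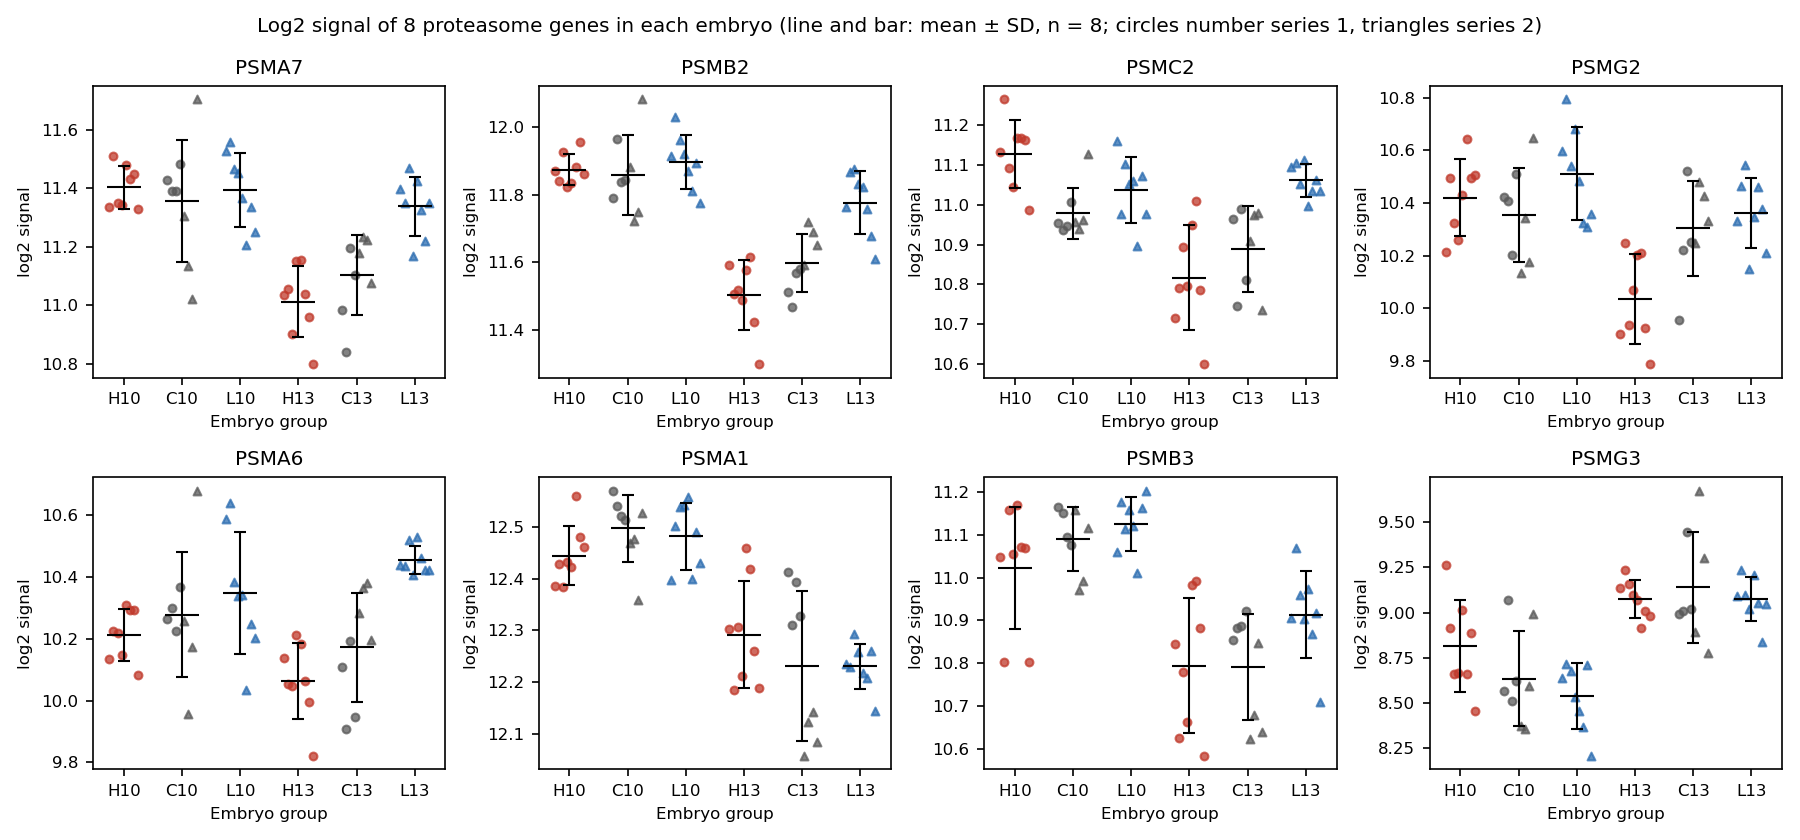
Log2 signal of 8 proteasome genes (panels) in each of 48 embryos by group, with mean ± SD of 8 embryos, circles for number series 1 and triangles for series 2. PSMA7, PSMB2 and PSMC2 lie lowest in H13, PSMA1 splits by series in C13, and PSMG3 lies higher at ED13 than at ED10.

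At ED13 the warmed embryos had lower proteasome signals than the cooled ones. In H13 against L13, 8 of 30 probe sets were lower in H13 (26.7%), where 1.86% of all probe sets were lower, and none was higher, where 1.04% of all were. The median log2 difference was -0.15 over the 30 and 0.002 over all probe sets, and 25 of the 30 differences lay below 0. The 8 genes were the alpha subunits PSMA6 and PSMA7, the beta subunit PSMB2, the ATPase PSMC2, the cap subunits PSMD1 and PSMD7 and the assembly chaperones PSMD5 and PSMG2. H13 and L13 embryos differ in number series as well as in temperature and humidity, and these cannot be told apart.

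PSMA6, an alpha subunit, ranged from 9.82 to 10.21 (median 10.06) in H13 and from 10.41 to 10.53 (median 10.44) in L13, and was lower in H13 by 0.39 ± 0.08 on the log2 scale or 1.31-fold (adjusted p = 0.00204). PSMA7 ranged from 10.80 to 11.16 in H13 and from 11.17 to 11.47 (median 11.35) in L13, a log2 difference of -0.33 ± 0.07 (adjusted p = 0.00439). Neither gene had an H13 embryo that reached the lowest L13 embryo. PSMB2 ranged from 11.61 to 11.87 (median 11.79) in L13, above all but the highest H13 embryo, with a log2 difference of -0.27 ± 0.05 (adjusted p = 0.000682).

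PSMC2 was lower in H13 by 0.24 ± 0.05 on the log2 scale (adjusted p = 0.00249) and PSMD1 by 0.16 ± 0.04 (adjusted p = 0.0116). PSMD5, a chaperone of the ATPase ring whose probe set lies below the background level, ranged from 8.39 to 8.70 (median 8.54) in H13 and from 8.68 to 9.04 (median 8.90) in L13, a log2 difference of -0.36 ± 0.09 (adjusted p = 0.0137). PSMG2 was lower by 0.32 ± 0.08 (adjusted p = 0.0206), a call lost without H13 embryo 25 or 36 or L13 embryo 74 (adjusted p = 0.0595 at most). PSMD7, the lid partner of PSMD14, had a log2 difference of -0.18 ± 0.05 (adjusted p = 0.0489), and its groups did not overlap. Its call was lost without any 1 of 12 of the 16 embryos (all but H13 embryos 28, 29 and 30 and L13 embryo 79), with an adjusted p of up to 0.109.

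None of the 8 calls held when the number series was brought in. These settings rest on 4 controls per series and day, so their standard errors were larger. A lost call can go with a larger standard error, a smaller difference or both. With each group set against the 4 C13 embryos of its own series, the log2 differences of the 8 genes between H13 and L13 lay between -0.12 and -0.24 and 0 of 30 members were called, with a median of -0.17. The differences were -0.12 for PSMA6, -0.18 for PSMA7 and -0.14 for PSMB2, smaller in size than those given above. That of PSMD1 was larger. With number series as a covariate they lay between -0.16 and -0.32, again with 0 called and a median of -0.19. Among C13 controls, series 2 minus series 1 gave 0.27 for PSMA6, 0.15 for PSMA7, 0.13 for PSMB2, 0.14 for PSMG2, 0.12 for PSMD5, 0.05 for PSMD7, 0.02 for PSMC2 and -0.04 for PSMD1, none of them called. For 7 of the 8 genes this value lay above 0. Over all 30 members 14 values lay above 0 and 16 below, with a median of -0.040 (-0.045 over all probe sets). In L13 against H13, 25 of the 30 were higher in L13. The part of the series in the differences between H13 and L13 cannot be told apart from that of the treatment.

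Skin markers are given beside these values. All 7 measured skin and feather markers had log2 differences below 0 in H13 against L13, with a median of -1.04 and 0 called. Their mean per array spanned 6.02 to 10.41 in H13 and 6.86 to 10.56 in L13. Among C13 controls the 7 markers had a median of 0.91 for series 2 minus series 1, and with each group set against the controls of its own series the median between H13 and L13 was 0.03. With the marker mean as a covariate, 5 of the 8 genes were still called (PSMA6, PSMA7, PSMB2, PSMC2 and PSMD1). Of the dividing-cell probe sets 3 of 12 were lower in H13, with a series median in C13 controls of -0.02, and the 10 muscle markers had a median difference of 0.10 with 0 called, with a series median of -0.12. The part of these shifts in the proteasome values was not tested further. In bulk muscle, fewer cells of a type and less RNA per cell cannot be told apart.

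Set against controls of the same day, no treatment called any of the 30 members in embryos. In H13 against C13, where 0.00966% of all probe sets were called, 22 of 30 differences lay below 0, with a median of -0.069 against 0.011 over all. In L13 against C13, where 0.0193% were called, 23 of 30 lay above 0, with a median of 0.088 against 0.014 over all. At an unadjusted p under 0.05 there were 4 and 9 of 30, where 10.4% and 7.4% of all probe sets were. These 2 comparisons share the C13 embryos. The skin markers had a median of -1.05 in H13 against C13, with 0 called.

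PSMG2 was the member nearest to the threshold in H13, with a log2 difference of -0.27 ± 0.08 (adjusted p = 0.263) and all 8 H13 embryos below the C13 mean. It was called with array weights (adjusted p = 0.035). The C13 embryos of series 1, the series of H13, ranged from 9.96 to 10.52 for PSMG2, and those of series 2 from 10.25 to 10.48. H13 ranged from 9.79 to 10.25, and the C13 mean covers both series. PSMD5 had -0.22 ± 0.09 (adjusted p = 0.381), also with 8 of 8 embryos below that mean, and PSMD9, a further ATPase ring chaperone, had -0.13 ± 0.06 (adjusted p = 0.388).

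In L13 the members nearest to the threshold were PSMA6 (0.28 ± 0.08, adjusted p = 0.255), PSMB2 (0.18 ± 0.05, adjusted p = 0.262) and PSMC2 (0.17 ± 0.05, adjusted p = 0.275). All 8 L13 embryos lay above the C13 mean for each of them. PSMA6 ranged from 9.91 to 10.38 (median 10.19) in C13 and PSMC2 from 10.74 to 10.99 (median 10.94), so that neither overlapped with L13. These were the 2 of 30 members without overlap. The share of all probe sets without overlap is not reported here, so this count has no background beside it. Against the 4 controls of their own series, PSMA6, PSMB2 and PSMC2 had differences of 0.15, 0.11 and 0.16.

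At ED10 the differences were smaller. In H10 against C10, 0 of 30 were called, where 0.130% of all probe sets were, and 16 differences lay above 0, with a median of 0.0053 against -0.028 over all, which became -0.005 with the controls of series 1 alone. PSMD1 (-0.13 ± 0.04, adjusted p = 0.17) was lower than the C10 mean in 8 of 8 H10 embryos, and PSMC2 (0.15 ± 0.05, adjusted p = 0.239) was higher in 8 of 8. PSMD1 was called when dim probe sets were left out (adjusted p = 0.0403). In L10 against C10, 0 of 30 were called, where 0% of all probe sets were, and 0 of 30 had an unadjusted p under 0.05. Of the 30 differences 25 lay above 0, and the median was 0.046 against 0.026 over all probe sets. PSMG2 (0.16 ± 0.08), PSMD12 (0.14 ± 0.08) and PSMD2 (0.09 ± 0.05) had an adjusted p of 0.951 each.

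In H10 against L10, 0 of 30 were called, where 3.83% of all probe sets were. The median was -0.044 against -0.052 over all, and turned to 0.023 with arrays centred on their medians. PSMD1 (-0.11 ± 0.04, adjusted p = 0.0867), PSMD14 (-0.16 ± 0.05, adjusted p = 0.0883) and the lid subunit PSMD12 (-0.20 ± 0.08, adjusted p = 0.121) came nearest. All 3 were called without L10 embryo 59, an embryo whose array median of 7.90 was the lowest of the 48. In C10 controls 0 of 30 differed between the series, where 0% of all probe sets did.

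**Figure D3:**
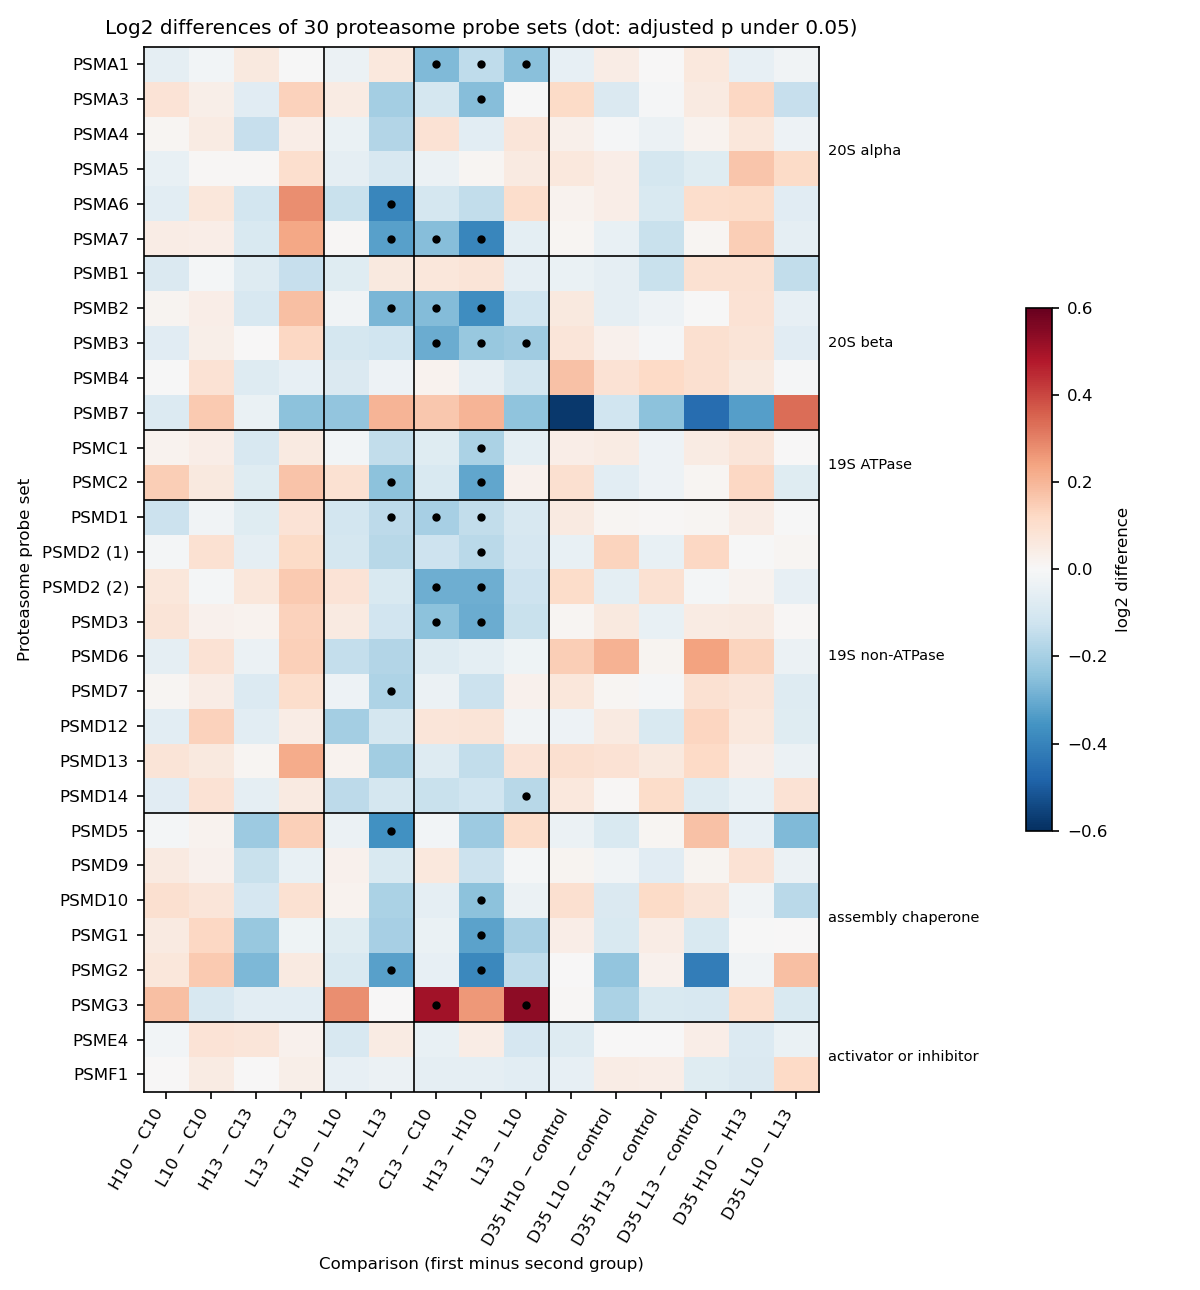
Log2 difference of each of 30 proteasome probe sets (rows, by role) in 9 embryo and 6 D35 comparisons (columns, first minus second group), red for higher and blue for lower, with a dot at an adjusted p under 0.05. Dots stand in H13 − L13 (8) and in the 3 comparisons of ED13 with ED10 (8, 14 and 4), and there are none in the columns against controls or at D35.

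At D35 no proteasome gene was called in any comparison. Against the 8 controls, 0 of 30 were called in H10, L10, H13 and L13, where 0%, 0%, 0.00483% and 0.0145% of all probe sets were. The medians were 0.035, 0.0055, -0.0083 and 0.044, against -0.022, -0.036, -0.013 and 0.031 over all probe sets. Those of H10, L10, H13 and L13 became 0.107, -0.053, 0.047 and -0.032 with the controls of the same number series alone, so that all but that of H10 changed sign. Between the early and late window, 0 of 30 were called in H10 against H13 and in L10 against L13, where 0.00483% and 0% of all were. The standard error of a difference had a median of 0.099, against 0.067 in embryos.

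PSMG2 came nearest in L13. It ranged from 9.38 to 9.95 (median 9.60) in controls and from 8.95 to 9.53 (median 9.22) in L13, a log2 difference of -0.42 ± 0.13 (adjusted p = 0.169). The groups overlapped. The mean of PSMG2 over all D35 arrays was 9.494, barely above the background level of 9.491, and its L13 median lay below that level. When dim probe sets were left out it was called (adjusted p = 0.0471), but it passed that filter only by this margin. Against the controls of its own series the difference was -0.48 (adjusted p = 0.987). PSMD6, a lid subunit, had 0.24 ± 0.11 in L13 (adjusted p = 0.345), 0.21 ± 0.11 in L10 (adjusted p = 0.82) and 0.15 ± 0.11 in H10 (adjusted p = 1).

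In H10 the core subunit PSMB4 had 0.18 ± 0.10 (adjusted p = 1). PSMB7, which lies under the background controls, also had an adjusted p of 1. In L10, PSMG2 (-0.24 ± 0.13, adjusted p = 0.826) and PSMG3 (-0.19 ± 0.11, adjusted p = 0.83) had the smallest p after PSMD6. In H13 PSMA7 (-0.14 ± 0.08), PSMA5 (-0.10 ± 0.08) and PSMD12 (-0.09 ± 0.07) had an adjusted p of 1 each, and PSMD12 turned to 0.034 against its own series. Between windows, PSMA5 (0.17 ± 0.08, adjusted p = 1) came first in H10 against H13, followed by PSMC2 and PSMA7. PSMD5 (-0.26 ± 0.14, adjusted p = 0.627) came first in L10 against L13, followed by PSMD10 and PSMA5.

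The ATPase PSMC2, called in embryos, ranged from 10.42 to 10.79 (median 10.69) in D35 controls, and the medians of the treatments ran from 10.60 in L10 to 10.76 in H10. The differences from controls lay between -0.06 and 0.10 for PSMC2, between -0.03 and 0.05 for PSMC1 and between -0.08 and 0.11 for PSMD14.

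Among the D35 controls, 25 of 30 members were higher in series 2 than in series 1, with a median of 0.13 and 0 called, where 0.275% of all probe sets were called. Over all probe sets the median was 0.085 and 63.2% lay above 0. Since the C10 chickens were all in series 1, series and window label are mixed in this comparison. PSMD5 (0.58 ± 0.17, adjusted p = 0.142) and PSMD6 (0.40 ± 0.14, adjusted p = 0.249) had the smallest p. The members' series median among these 8 chickens was larger than their median difference of any treatment from all 8 controls.

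**Figure D4:**
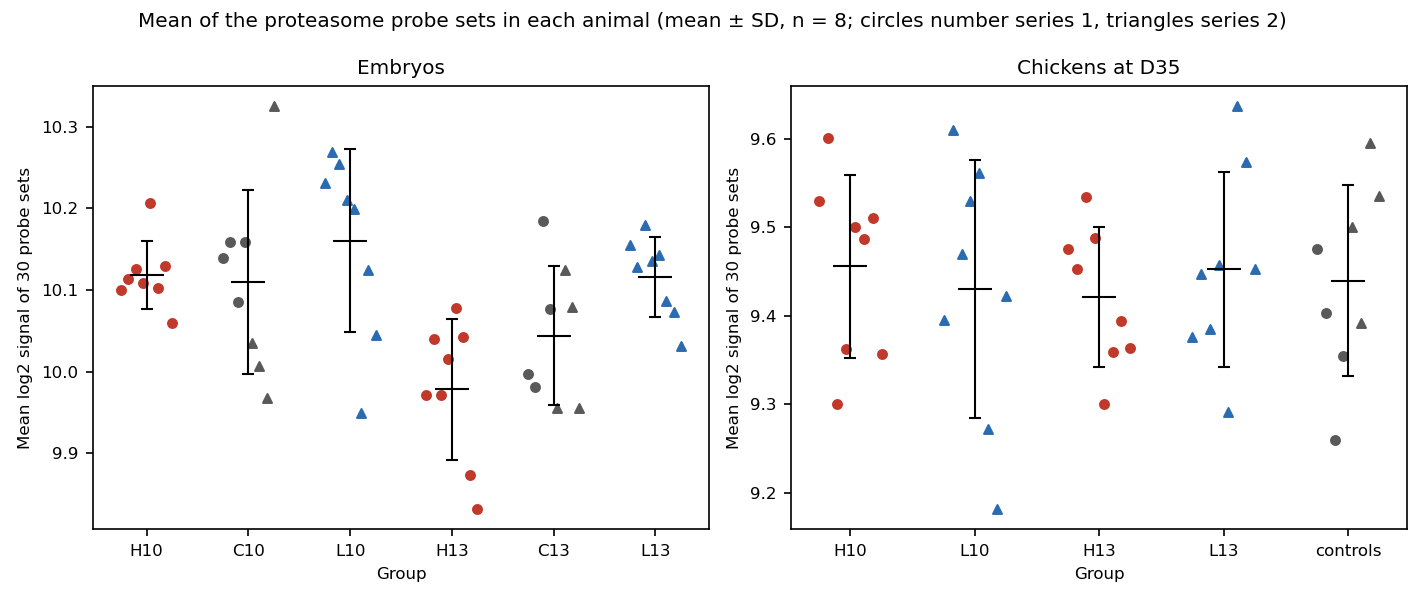
Mean log2 signal of the 30 proteasome probe sets in each embryo (left) and each chicken at D35 (right), with mean ± SD of 8 animals per group, circles for number series 1 and triangles for series 2. Embryo medians run from 9.99 in H13 to 10.20 in L10, and the 5 groups at D35 overlap, with medians of 9.42 to 9.49.

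The mean signal of the 30 probe sets ranged from 9.83 to 10.08 (median 9.99) in H13, from 9.96 to 10.18 (median 10.04) in C13 and from 10.03 to 10.18 (median 10.13) in L13. At ED10 it ranged from 10.06 to 10.21 (median 10.11) in H10, from 9.97 to 10.33 (median 10.11) in C10 and from 9.95 to 10.27 (median 10.20) in L10. Within groups the members moved together from animal to animal. In H13 embryo 36, 29 of 30 members lay below their group mean, and in C10 embryo 70, 1 of 30 did. At D35, 29 of 30 lay below it in 1 L10 chicken and 0 of 30 in 1 L13 chicken. These arrays also stood at an end of the signal over all probe sets. The array median of embryo 36 was the lowest of H13 (8.02), and that of embryo 70 the highest of C10 (8.28). That of the L10 chicken was the lowest at D35 (6.64), and that of the L13 chicken the highest (6.98).

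With group means subtracted, the median Pearson correlation over 435 pairs of members was 0.381 across 48 embryo arrays, against 0.108 over all pairs of probe sets with a symbol (Spearman 0.369 and 0.104). At D35 it was 0.334 across 40 arrays, against 0.077 (Spearman 0.345 and 0.074). Without the 2 arrays farthest from the median it was 0.327 and 0.310. These points share the scaling of an array, and once each array was centred on its median deviation the values were 0.104 in embryos and 0.157 at D35, against -0.002 and 0.001 over all pairs. The share of member pairs above 0 was then 61.4% and 78.4%. Centred and without the 2 farthest arrays of each stage, the correlation was 0.062 in embryos and 0.168 at D35. The correlation of the members was thus lower after centring and still above that of all pairs. PSMA3 (0.85) and PSMD7 (0.84) correlated most with the mean of the other members in embryos, and PSMA5 (0.13) and PSMF1 (-0.09) least. At D35 PSMA3 and PSMA6 came first (0.80 each) and PSMB7 last (0.02).

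Genes that feed or adjust the proteasome were taken from a list of ubiquitin pathway genes, 33 of which had a probe set (34 in all). From C10 to C13, 6 of 34 rose and 5 fell, from H10 to H13 10 rose and 4 fell, and from L10 to L13 2 rose and 3 fell. Over all probe sets the shares that rose and fell were 11.8% and 16.4% in controls, 14.3% and 12.4% in H embryos and 9.76% and 15.2% in L embryos. The median differences were 0.03 in controls and 0.09 in H embryos, and lay at 0 in L embryos. The genes that rose in all 3 treatments were TRIM63 and FBXO32, ubiquitin ligases of striated muscle known for their part in muscle atrophy. TRIM63 rose by 0.66 ± 0.11 in controls, 0.58 ± 0.11 in H and 0.70 ± 0.11 in L embryos, and FBXO32 by 0.52, 0.41 and 0.52.

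NFE2L2, a transcription factor that induces proteasome genes in mammals under oxidative stress, rose by 0.48 ± 0.11 in controls and 0.47 ± 0.11 in H embryos and had a difference of 0.15 ± 0.11 in L embryos. NGLY1, the glycanase that activates the related factor NFE2L1, rose by 0.48 ± 0.09 in controls and 0.45 ± 0.09 in H embryos. The ligase FBXO30 rose by 0.50 in controls and 0.47 in H embryos, and UBR2 by 0.21 and 0.32. UBE3C, UBR1, UBE2D1 and FAF1 were called higher at ED13 in H embryos, by 0.25 to 0.36.

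AKIRIN2, which in human cells carries proteasomes into the nucleus, fell by 0.28 ± 0.05 in controls, 0.22 ± 0.05 in H and 0.28 ± 0.05 in L embryos. UBQLN4, a shuttle that brings ubiquitinated proteins to the proteasome, fell by 0.35 ± 0.06, 0.26 ± 0.06 and 0.22 ± 0.06. UBR4 fell in controls and L embryos, by 0.27 and 0.18. Among C13 controls it also differed between the number series, by -0.27 (series 2 minus series 1, adjusted p = 0.0488). USP14, the deubiquitinase bound to the cap, and FAF2 fell in controls, by 0.17 and 0.21, and UBE2K and RPS27A fell in H embryos, by 0.21 and 0.26. RPS27A, a fusion of ubiquitin with a ribosomal protein, also belongs to the ribosome list below. Among C13 controls RPS27A differed between the series by 0.46 (series 2 minus series 1, adjusted p = 0.00601), while the H embryos all lie in series 1.

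**Figure D5:**
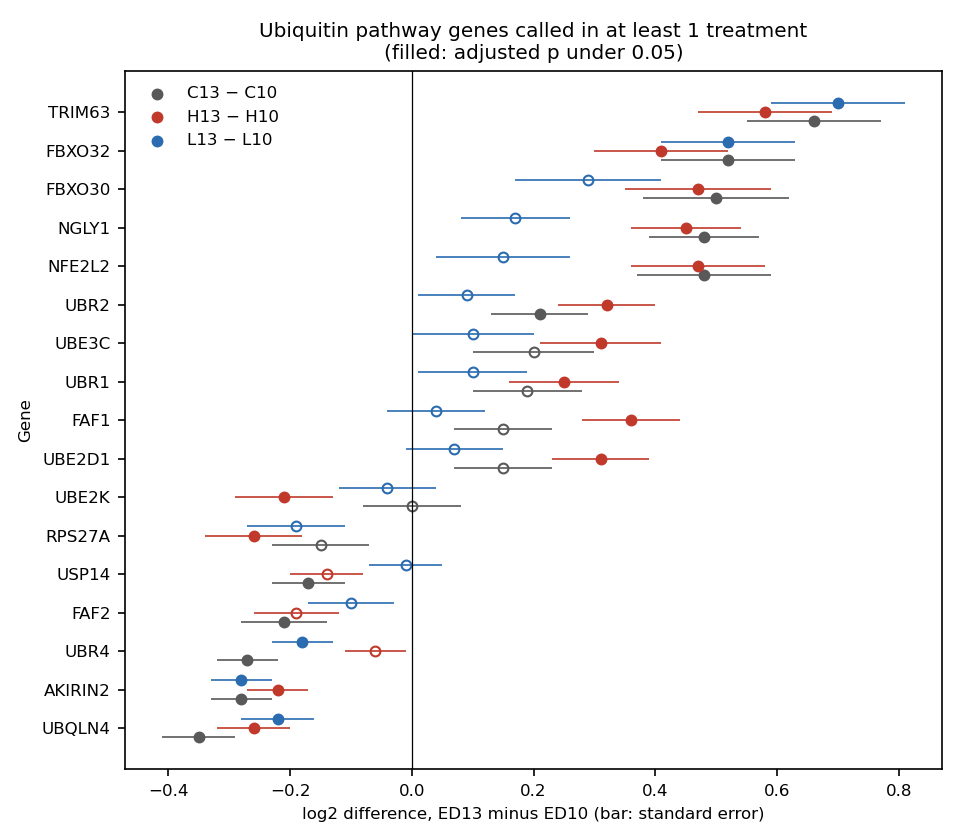
Log2 difference between ED13 and ED10, with standard errors, of the 17 genes of the ubiquitin pathway list that were called in at least 1 treatment, in control (grey), H (red) and L (blue) embryos. Filled points passed an adjusted p of 0.05. TRIM63 lies highest in each treatment, and AKIRIN2 and UBQLN4 lie below 0 with filled points in all 3.

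In H13 against L13, USP14 (-0.24 ± 0.06, adjusted p = 0.0307) and the conjugating enzyme UBE2K (-0.28 ± 0.08, adjusted p = 0.0299) were lower and UBE2D2 (0.21 ± 0.06, adjusted p = 0.0328) was higher. That is 2 of 34 lower and 1 higher, where 1.86% and 1.04% of all probe sets were. In H10 against L10, TRIM63 was higher by 0.36 ± 0.11 (adjusted p = 0.0433). It was the 1 of 34 called, where 3.83% of all probe sets were, so the count was near the background. With each group set against the controls of its own series none of the 4 was called, with differences of -0.16 for USP14, -0.16 for UBE2K, 0.18 for UBE2D2 and 0.11 for TRIM63. Among controls of the same day, series 2 minus series 1 gave 0.08, 0.12, -0.03 and -0.25. None of the 34 was called against controls of the same day or at D35, where STUB1 (0.36 ± 0.08 in L13, adjusted p = 0.103), UBQLN4 (0.30 ± 0.08 in L13, adjusted p = 0.158) and UBE2D1 (0.44 ± 0.16 in L13, adjusted p = 0.236) came nearest.

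Subunits of 2 other large complexes, the chaperonin CCT, which folds actin and tubulin, and the ribosome, were counted in the same way. From H10 to H13, 5 of 7 CCT probe sets fell with a median of -0.24, and 17 of 56 cytosolic ribosome probe sets fell and 2 rose with a median of -0.09. In controls 4 of 7 and 5 of 56 fell, and from L10 to L13 0 of 7 and 3 of 56 did, with 3 ribosome probe sets higher in each. Of all probe sets 12.4% fell in H embryos, 16.4% in controls and 15.2% in L embryos, so that the ribosome counts in controls and L embryos lay below the background. In H13 against L13, 4 of 7 CCT probe sets and 0 of 56 ribosome probe sets were lower, where 1.86% of all were. Against the controls of their own series 0 of 7 CCT probe sets were called, and among C13 controls the 7 had a median of 0.12 for series 2 minus series 1. No test compared the lists. Over the same days 6 of 10 muscle markers rose in control and H embryos and 7 in L embryos, with 1 lower in each. Of 12 probe sets of dividing cells, 7 fell in controls, 7 fell and 1 rose in H embryos and 8 fell in L embryos. Of 7 fat cell probe sets, 6 rose in each treatment, with medians of 1.21 in controls, 1.61 in H and 1.42 in L embryos. Of 9 cartilage probe sets, 7 fell in controls, 3 fell and 1 rose in H and 7 fell in L embryos, with medians of -1.20, -0.52 and -1.40. Of 5 endothelial probe sets 3, 4 and 2 rose, and of 8 tendon and connective tissue probe sets 4, 5 and 4 rose. The lists of skin, red blood cells, leukocytes and nerve had medians between -0.45 and 0.43. The part of these shifts in the changes of the proteasome genes was not tested, apart from the muscle marker mean, with which 12 of the 14 falls in H embryos were called.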

How the data were processed

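Hybridisation signals of 88 Affymetrix arrays were used as deposited by the authors, as log2 intensity values normalized by the submitters. The submitters' processing notes name GCOS 1.1.1, and the normalization method and the genome build of the array are not given in the sources used here. A second deposited table held the same values (largest difference 0). Gene symbols came from the array annotation, where 12300 probe sets had 1 symbol, 256 several and 8150 none. The 98 control probe sets were left out. Within each stage (48 embryos, 40 chickens) all groups were fitted together with limma 3.58.1 in R 4.3.3, without a filter on level, with Benjamini-Hochberg adjustment over 20706 probe sets and a threshold of 0.05. ± in a difference is the standard error. The fit was tested on simulated data. Comparisons were each treatment against controls of its stage, ED13 against ED10, H against L, the differences between those changes, and the number series within controls. Replicates were separate animals, no 2 arrays were identical, and the number of arrays limits the precision.

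The members and lists were chosen with earlier results of these data known. Named were all called members, the 3 with the smallest p where fewer were called, PSMB7, PSMD14 and the ATPases where measured, members singled out in the closing section, and called ubiquitin pathway genes. Alternatives covered normalization, centring, a filter on level, moderation, array weights, the groups in the fit, controls by series or window, covariates (number series, W-linked, skin and muscle marker means) and leaving out each array. Sequences were not used here.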

Additional observations from a re-analysis of the deposited data

Results flagged for a closer look

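In 13 of 330 sets of values, each a probe set in a group of 8, 1 animal lay far from the other 7 by Dixon's gap criterion. That is 3.94%, and chance alone gives about 1 in 20.

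Of these, 4 belonged to C10 embryo 70, in which each was the highest value. PSMC2 was at 11.13 with the next embryo at 11.01, PSMD7 at 11.56 with the next at 11.33, PSMD6 at 9.73 with the next at 9.17, and PSMD5 at 9.38 with the next at 8.79. In the same embryo 1 of 30 members lay below the group mean, and its array median of 8.28 was the highest of C10. In C10 embryo 65 PSMD14 was the lowest, at 9.99 with the next at 10.34. In H10 embryo 12 PSMA3 was the highest, at 9.90 with the next at 9.73.

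At D35 both probe sets of PSMD2 were lowest in the same L10 chicken, at 10.73 and 6.86, with the next chickens at 11.09 and 7.63. The array median of that chicken, 6.64, was the lowest at D35, and 29 of 30 members lay below the group mean in it. PSMG3 was lowest in another L10 chicken, at 6.83 with the next at 7.53. PSMA6 was lowest in H10 chicken 74, at 9.25 with the next at 9.54, and PSMD10 was lowest in control chicken 68, at 8.80 with the next at 9.02. PSMA3 was highest in H10 chicken 11, at 9.43 with the next at 9.17, and PSMB3 was highest in H13 chicken 39, at 10.08 with the next at 9.89.

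The change of PSMC2 from ED10 to ED13 differed between H and L embryos by -0.33 (H minus L, adjusted p = 0.0086, test of the difference itself). The same test against the change in controls was not called for H (-0.22, adjusted p = 0.268) or for L (0.11, adjusted p = 1).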

How the results depend on the processing

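No paired analysis was possible because the groups compared within a stage share no animal numbers. Of 35 called results of single members, 31 kept their call whichever 1 array was left out. Under the other alternatives these calls held in 336 cases and were lost in 29, with the direction kept in each. The counts that follow are of members only. The share of all probe sets called under each alternative is not reported here, so a larger count can also reflect more calls over the whole array. In H13 against L13 the 8 became 14 with array weights, 13 with quantile normalization, 5 with the skin marker mean, and 0 with number series as a covariate or with the controls of each series, and 6 to 10 with 1 array left out. In H10 against L10 the 0 became 3 with array weights, 2 without dim probe sets, 2 with number series as a covariate, and 1 (higher) with centring or quantile normalization, and 0 to 3 with 1 array left out (3 without L10 embryo 59). In the change of H against that of L, the 1 became 6 with centring or quantile normalization, 3 with array weights or without dim probe sets, and 2 with the muscle marker mean, with the compared groups alone or with a robust trend, and 1 to 2 with 1 array left out (2 without L13 embryo 83). In L13 against L10 the 4 became 12 with array weights, 7 with quantile normalization, and 4 to 6 with 1 array left out. In C13 against C10 the 8 became 5 within series 1, and 7 to 9 with 1 array left out, and in H13 against H10 the 14 became 13 to 16. The 0 became 1 in H13 against C13 with array weights, and without dim probe sets in H10 against C10 and in D35 L13 against controls. The remaining counts were 0 with any 1 array left out. At D35 the sign turned for PSMD12 in H13 (0.034 with number series as a covariate or its own series' controls) and for PSMG3 in L10 (0.007 with the controls of the same window). The cause of these shifts was not tested.

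Precision was limited by 8 arrays a group and by signal over background, above which 18 of 30 members lay in embryos and 15 at D35. Each window had few controls at D35. The planned search for promoter motifs was not run.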
